A study of Drosophila melanogaster with 6 samples.

Results

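The 71 genes described here encode proteins of the mitochondrial ribosome of Drosophila melanogaster. They are all rows of the deposited gene count table whose symbol begins with mRpL or mRpS followed by a digit, and they make up 71 of the table's 14233 rows. By symbol, 45 belong to the large subunit (mRpL) and 26 to the small subunit (mRpS). All 71 had enough counts to be tested.

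Mitochondria carry a ribosome of their own, separate from the one in the cytosol. It translates the few messages of the mitochondrial genome, which encode core subunits of the respiratory chain and of ATP synthase. Its RNAs are transcribed inside the mitochondrion, whereas all of its proteins come from nuclear genes, are made in the cytosol and are then imported. Part of these proteins descend from proteins of the bacterial ribosome, and the rest are found only in mitochondria. Of the 71 genes, 43 encode a protein with a bacterial counterpart and 28 a mitochondria-specific one. In Drosophila, loss of single mitoribosomal proteins slows larval growth, and mRpL12 is known as a gene that Cyclin D and Cdk4 need to drive growth.

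The series compares 2 genotypes in the wing imaginal disc, the larval epithelium that gives rise to the adult wing and part of the thorax, with 3 libraries each. Both genotypes carried the Ap>Gal4 driver, which is active in the dorsal compartment of the disc, a UAS transgene for myristoylated Tomato (myrT), a red fluorescent membrane marker, and TubGal80ts, a temperature-sensitive Gal4 inhibitor. One genotype also expressed RasV12, a Ras protein locked in its active state, which keeps the MAP kinase cascade switched on. The other expressed GFP-i, an abbreviation that the labels do not expand, and served as the comparison. Larvae were kept for 6 days at 18 °C and for 3 days at 29 °C, which switches the transgenes on, and discs were dissected from wandering third-instar larvae. The discs were dissociated with trypsin, dorsal cells were sorted by fluorescence, and 150000 cells went into each lysate. RNA was sequenced from the 3′ ends of messages (QuantSeq), so that a gene's count reflects tags at its 3′ end and not its length. The labels do not say whether the 3 libraries of a genotype come from separate groups of larvae, so the p-values measure the spread between these libraries only, which may be technical.

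Library totals ran from 11070295 to 15581752 counts. Levels below are in CPM (counts scaled to a common library total) after TMM, a normalization that corrects for library composition, and 3 counts, taken as the floor, correspond to 0.193 to 0.271 CPM. Counts at Ras85D, the gene of the endogenous Ras protein, were higher in RasV12, with a log2 fold change of 0.66 ± 0.17 (SE, adjusted p = 0.0248, edgeR quasi-likelihood test). Whether they include reads of the RasV12 transgene was not tested. Among 5 markers of the labelled tissue, ap stood at 207 to 308 CPM in all 6 libraries, while vg (log2 fold change -1.45) and nub (-3.58) fell and Dr (0.87) rose. Markers of other cell types also moved: 2 of 5 tested haemocyte markers (Cg25C and vkg) were lower in RasV12, with summed levels of 14.2 to 18.7 CPM against 19.8 to 34.1 CPM in GFP-i, and eater was at 0 in 5 libraries and He in the 3 RasV12 libraries. Of 6 markers of muscle precursors 3 (Him, zfh1 and htl) were lower (60.0 to 76.4 against 76.8 to 117 CPM), of 5 tracheal markers 3 (btl, verm and serp) were higher and 1 (Gasp) lower (394 to 498 against 297 to 338 CPM), and of 5 markers of neurons and glia 1 (moody) was higher (69.0 to 82.0 against 52.3 to 69.9 CPM). The fat body marker Fbp1 was at 0 in 5 libraries, and 0 of 1 tested fat body marker passed. The part of these cell types in the values below was not tested.

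No mitoribosomal gene passed the test between RasV12 and GFP-i. At an adjusted p under 0.05 (edgeR's quasi-likelihood test with Benjamini-Hochberg adjustment over all 9134 genes tested), 0 of 71 genes were higher and 0 were lower, where 9.15% of all tested genes were called higher and 5.68% lower, 14.8% in either direction. Among the 6294 tested genes whose mean level lay within the range of the mitoribosomal genes, 12.5% were called. At an unadjusted p under 0.05, 3 of 71 genes (4.23%) stood out, against 28.3% of all tested genes. These were mRpL39, mRpL18 and mRpL1, and all of them had negative values. DESeq2 also called 0 of 71 at an adjusted p under 0.05 (15.1% of the genes it tested were called), with mRpL39 and mRpL1 at an unadjusted p under 0.05. With limma-voom the count was again 0 (14.7% of genes called), with mRpL18, mRpL39, mRpL1 and mRpS25 at an unadjusted p under 0.05. In these bulk samples, fewer cells of a type and less RNA per cell cannot be told apart.

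The log2 fold changes of the 71 genes lay close together around 0. Their median was 0.01, beside 0.02 over all tested genes, and they ran from -0.66 for mRpL39 to 0.64 for mRpS25. In 66 of the 71 genes (93.0%) the change was smaller than 0.5 on the log2 scale, which held for 67.9% of all tested genes and for 67.3% of those in the same range of levels. A total of 42 genes had positive and 29 had negative values, but this split depended on the scaling: with DESeq2's size factors in edgeR it was 31 to 40, and with library size alone 21 to 50, where the median over all tested genes also moved, from 0.02 to -0.14.

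A p above the threshold does not show that a level is the same in both genotypes, so the intervals are given as well. The 95% interval of the log2 fold change lay within -1 and 1, that is within a doubling or halving, for 64 of 71 genes, which held for 58.2% of all tested genes. It lay within -0.5 and 0.5 for 18 of them. The interval reached past 1 for mRpL9 (to 1.32), mRpL35 (to 1.26), mRpS25 (to 1.37) and mRpS31 (to 1.02), and below -1 for mRpL39 (to -1.23), mRpL18 (to -1.09) and mRpL10 (to -1.08). The narrowest intervals were those of mRpS10 (-0.58 to 0.06) and mRpL33 (-0.29 to 0.36).

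**Figure D1:**
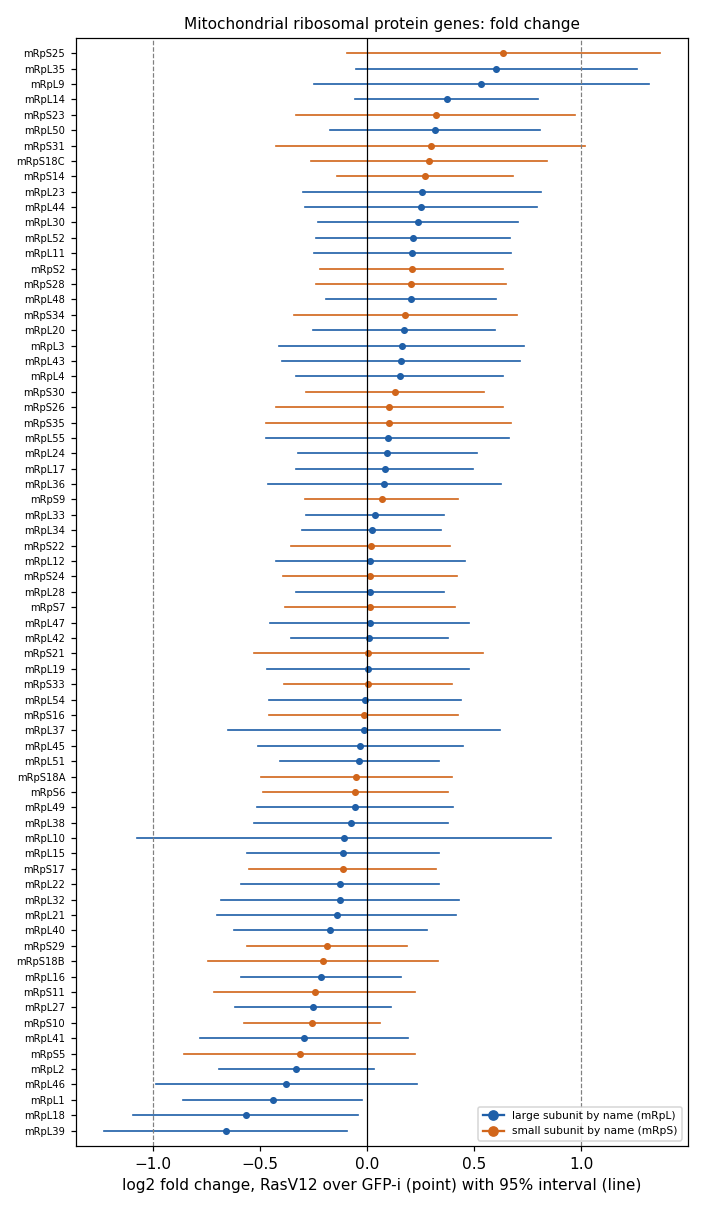
Log2 fold change of each of the 71 mitoribosomal genes, RasV12 over GFP-i (points), with its 95% interval from edgeR (lines), ordered by value and coloured by subunit; the dashed lines mark -1 and 1. The points run from -0.66 to 0.64, and 64 of the 71 intervals stay between the dashed lines.

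In the large subunit, the stalks are the mobile parts that handle tRNAs and translation factors. mRpL1 is the counterpart of the bacterial L1 stalk protein, which helps to release spent tRNA from the exit site. Its level was 18.7, 12.4 and 13.9 CPM in RasV12 replicates 1 to 3 and 20.3, 20.3 and 20.5 CPM in GFP-i replicates 1 to 3. Every RasV12 library lay below every GFP-i library, with a wider spread in RasV12 (SD 3.33) than in GFP-i (SD 0.147). The log2 fold change of -0.44 ± 0.19 (SE) had an adjusted p of 0.155 in edgeR's quasi-likelihood test, and over the alternatives the adjusted p ran from 0.0443, with library size as the only scaling, to 0.346. The gene lies on the plus strand of chromosome 3R at 8301440 to 8302770 (dm6).

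mRpL12 is the counterpart of the bacterial L12 stalk protein, which recruits the GTPases of translation, and mRpL10 that of the protein which anchors L12. The level of mRpL12 was 47.0, 29.7 and 36.5 CPM in RasV12 and 40.0, 30.5 and 41.8 CPM in GFP-i, so the groups overlapped over almost their whole range. Its log2 fold change was 0.01 ± 0.20 (SE), with a 95% interval from -0.43 to 0.46. mRpL10 had the fewest tags of all members, 11, 14 and 18 counts in RasV12 and 19, 12 and 20 in GFP-i, and its log2 fold change of -0.11 ± 0.43 (SE) had a 95% interval from -1.08 to 0.86. For mRpL11, at the base of the stalk in bacteria, levels of 15.2, 11.2 and 10.9 CPM in RasV12 overlapped those of 10.2, 9.49 and 12.5 CPM in GFP-i (log2 fold change 0.21 ± 0.21, SE, and 0.04 without RasV12 replicate 1).

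Other members correspond to bacterial proteins around the catalytic centre, the subunit interface and the exit tunnel. mRpL2, whose bacterial counterpart sits next to the peptidyl transferase centre, was at 20.5, 16.7 and 18.6 CPM in RasV12 and at 24.4, 21.1 and 24.9 CPM in GFP-i. The groups did not overlap, and the log2 fold change was -0.33 ± 0.16 (SE, adjusted p = 0.217, edgeR). mRpL14, whose bacterial counterpart forms bridges to the small subunit, went the other way, with 15.5, 10.8 and 13.6 CPM in RasV12 against 10.8, 9.67 and 10.4 CPM in GFP-i. Here RasV12 replicate 2 and GFP-i replicate 1 were nearly level, and the log2 fold change was 0.37 ± 0.19 (SE, adjusted p = 0.243, edgeR).

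mRpL23, a protein at the exit of the tunnel in bacteria, showed 25.4, 27.5 and 16.3 CPM in RasV12 and 21.97, 13.9 and 22.1 CPM in GFP-i. One library in each genotype, RasV12 replicate 3 and GFP-i replicate 2, stood low, and the log2 fold change of 0.26 ± 0.25 (SE) was 0.02 without GFP-i replicate 2 and 0.46 without RasV12 replicate 3. Among other members placed around the tunnel, mRpL22, mRpL24, mRpL47 and mRpL45 had log2 fold changes of -0.13, 0.09, 0.01 and -0.03. Of these, mRpL47 is the counterpart of bacterial L29, and mRpL45 lies at the tunnel exit in humans. mRpL30 was at 16.2, 13.96 and 12.8 CPM in RasV12 and at 13.2, 9.19 and 14.1 CPM in GFP-i, a log2 fold change of 0.24 ± 0.21 (SE) that was 0.02 without GFP-i replicate 2. mRpL33 had the most tags of all members, 466 to 654 counts a library, and stood at 47.5, 43.7 and 39.9 CPM in RasV12 and at 46.6, 37.8 and 43.5 CPM in GFP-i. Its groups overlapped, and its log2 fold change of 0.03 ± 0.14 (SE) is among the most precisely measured ones.

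mRpL55, counterpart of bacterial L31, was at 8.35, 15.2 and 9.35 CPM in RasV12 and at 12.04, 9.19 and 9.44 CPM in GFP-i, with RasV12 replicate 2 above the other 5 libraries. Its log2 fold change was 0.09 ± 0.25 (SE), and -0.21 without RasV12 replicate 2. mRpL18 and mRpL35, counterparts of the bacterial proteins of the same number, were named after their values had been seen. mRpL18 was at 3.85, 3.75 and 3.88 CPM in RasV12 and at 6.32, 4.83 and 5.89 CPM in GFP-i, with no overlap and a log2 fold change of -0.57 ± 0.24 (SE, adjusted p = 0.145, edgeR). mRpL35, at 2.76, 4.03 and 3.46 CPM in RasV12, lay above its GFP-i levels of 2.18, 2.42 and 2.12 CPM (log2 fold change 0.60 ± 0.29, SE, adjusted p = 0.216, edgeR). mRpL9 had 20 to 33 counts in RasV12 and 14 to 31 in GFP-i, and after scaling its groups did not overlap (1.87 to 2.40 against 1.05 to 1.83 CPM). Its log2 fold change of 0.53 ± 0.35 (SE) had an adjusted p of 0.365 in edgeR's test.

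The most negative value among the members belonged to mRpL39, a mitochondria-specific protein of the large subunit encoded on the minus strand of chromosome 3L at 14997981 to 14999666 (dm6). Its level was 9.36, 13.6 and 7.90 CPM in RasV12 and 20.9, 13.1 and 14.7 CPM in GFP-i. RasV12 replicate 2 lay above GFP-i replicate 2, so the groups overlapped. The log2 fold change was -0.66 ± 0.26 (SE, adjusted p = 0.120, edgeR), and over the alternatives it ran from -0.91 to -0.49. Without RasV12 replicate 2 the adjusted p was 0.0267, the only case among the libraries left out in turn in which a mitoribosomal gene passed the test. mRpL41, also mitochondria-specific, was at 13.5, 8.43 and 11.3 CPM in RasV12 and at 12.5, 12.4 and 16.1 CPM in GFP-i, a log2 fold change of -0.30 ± 0.22 (SE) with overlapping groups, and of -0.14 without RasV12 replicate 2.

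In the small subunit, mRpS5 and mRpS10 are counterparts of bacterial S5, which takes part in the accuracy of decoding, and of S10 in the subunit's head. mRpS5 was at 5.95, 10.8 and 10.1 CPM in RasV12 and at 10.6, 12.2 and 10.5 CPM in GFP-i. RasV12 replicate 1 stood apart from the other libraries, and the log2 fold change of -0.32 ± 0.24 (SE) was -0.09 without it. mRpS10 was at 25.8, 25.7 and 23.7 CPM in RasV12 and at 29.4, 29.1 and 31.4 CPM in GFP-i. The groups were narrow and did not overlap, with a log2 fold change of -0.26 ± 0.14 (SE, adjusted p = 0.272, edgeR), an effect whose 95% interval reaches from -0.58 to 0.06. mRpS28 was at 24.97, 16.7 and 16.6 CPM in RasV12 and at 18.1, 16.8 and 15.7 CPM in GFP-i (log2 fold change 0.20 ± 0.20, SE, and -0.02 without RasV12 replicate 1).

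Among the mitochondria-specific proteins of the small subunit, mRpS25 had the most positive value of all members. It was at 16.5, 16.8 and 12.9 CPM in RasV12 and at 12.2, 5.01 and 12.6 CPM in GFP-i. Though the groups did not overlap, RasV12 replicate 3 and GFP-i replicate 3 were nearly level, and GFP-i replicate 2 stood far below its group. The log2 fold change was 0.64 ± 0.32 (SE, adjusted p = 0.239, edgeR) and dropped to 0.27 ± 0.21 (SE, adjusted p = 0.519) without GFP-i replicate 2. The gene lies on the minus strand of the X chromosome at 14582136 to 14582982 (dm6), and on the opposite strand it overlaps CG14414, which had more counts. mRpS31 showed the same low library, with 12.9, 11.8 and 8.66 CPM in RasV12 and 12.9, 5.07 and 9.29 CPM in GFP-i (log2 fold change 0.30 ± 0.32, SE). Without GFP-i replicate 2 that value was -0.04, and without GFP-i replicate 1 it was 0.58. By contrast mRpS22 was at 47.3, 31.9 and 37.6 CPM in RasV12 and at 40.2, 38.1 and 37.2 CPM in GFP-i, a log2 fold change of 0.02 ± 0.17 (SE).

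The S18 family, mRpS18A, mRpS18B and mRpS18C, encodes distinct proteins that in the human mitoribosome occupy different places, with the protein of the first in the large subunit. mRpS18A was at 7.26, 7.68 and 8.24 CPM in RasV12 and at 9.03, 7.01 and 8.01 CPM in GFP-i (log2 fold change -0.05 ± 0.20, SE). mRpS18B was at 5.74, 4.498 and 3.88 CPM against 5.19, 5.42 and 5.67 CPM (-0.21 ± 0.24, SE). For mRpS18C the levels were 10.8, 8.53 and 7.90 CPM against 7.75, 5.42 and 9.22 CPM (0.29 ± 0.25, SE, and 0.05 without GFP-i replicate 2). Groups overlapped for all members of this family.

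mRpS29, whose human counterpart DAP3 is a GTP-binding protein first studied in cell death, was at 11.9, 11.7 and 10.3 CPM in RasV12 and at 13.1, 12.4 and 13.1 CPM in GFP-i. The groups did not overlap, but the log2 fold change was small, -0.19 ± 0.17 (SE, adjusted p = 0.516, edgeR). mRpS30, whose human counterpart lies in the large subunit in spite of its name, was at 9.44, 10.0 and 9.70 CPM in RasV12 and at 10.1, 8.13 and 8.46 CPM in GFP-i (0.13 ± 0.19, SE).

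Counted over all members, 8 genes had every RasV12 library above every GFP-i library, which is 11.3% of members where 18.6% of all tested genes did so. They were mRpL9, mRpL35, mRpL48, mRpL50, mRpL52, mRpS2, mRpS14 and mRpS25. In 5 members every RasV12 library lay below every GFP-i library, 7.04% against 15.1% of all tested genes, and these were mRpL1, mRpL2, mRpL18, mRpS10 and mRpS29. The lower share of genes without overlap is a description of these libraries and was not tested.

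The members together took up 0.0985%, 0.0910% and 0.0871% of the raw counts in RasV12 replicates 1 to 3. In GFP-i replicates 1 to 3 they took up 0.110%, 0.0939% and 0.107%. After TMM, their summed level was 1079, 945 and 907 CPM in RasV12 and 1049, 862 and 1036 CPM in GFP-i. The means of these sums, 977 ± 90.5 and 983 ± 104 CPM (SD, n = 3 each), gave a ratio of 0.994, and the groups overlapped. The ratio holds for the TMM scaling. With library size alone, the median log2 fold change of the members was -0.15, beside -0.14 over all tested genes. For the large-subunit genes the sums were 619 ± 54.2 CPM (RasV12) and 630 ± 74.0 CPM (GFP-i; SD, n = 3 each). For the small-subunit genes by symbol, which include mRpS18A and mRpS30, they were 357 ± 37.0 CPM and 352 ± 31.1 CPM (SD, n = 3 each). The large-to-small ratio of these sums was 1.70, 1.79 and 1.72 in RasV12 and 1.78, 1.72 and 1.86 in GFP-i, so both subunits kept nearly the same proportion in every library.

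**Figure D2:**
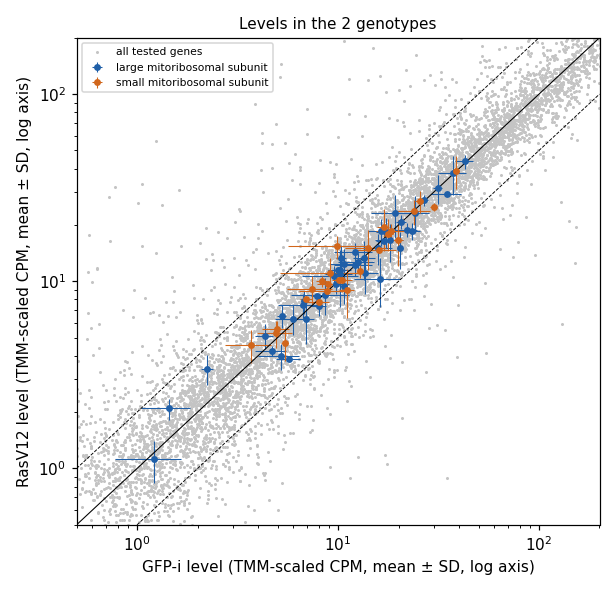
Mean level in RasV12 against mean level in GFP-i, in TMM-scaled CPM on log axes, for the 71 mitoribosomal genes by subunit (coloured points, bars ± SD, n = 3) and for all tested genes (grey); the solid line marks equal levels and the dashed lines a log2 fold change of -1 and 1. All coloured points lie between the dashed lines, with log2 fold changes from -0.66 to 0.64.

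The medians differed little by subunit, origin or chromosome. The median log2 fold change was 0.01 in the 45 large-subunit and 0.01 in the 26 small-subunit genes, 0.01 in the 43 genes with a bacterial counterpart and 0.01 in the 28 mitochondria-specific ones. The 12 mitochondria-specific genes of the small subunit by symbol, mRpS18A and mRpS30 among them, had a median of 0.10, with 9 positive values. The 16 of the large subunit had one of -0.02, with 6 positive and 10 negative values. By chromosome the members were spread over 3R (21 genes), 3L (17), 2L, 2R and X (11 each), with medians from -0.01 on 2R to 0.13 on X. The 5 members with an absolute value of 0.5 or more had mean levels from 1.77 to 13.3 CPM, and none came from the third of members with the most tags, whose values ran from -0.44 to 0.26. Across the 71 genes, the log2 fold change and the log2 level had a Pearson correlation of -0.22, given as a description, since these genes share the same 6 libraries. The spread between replicates was small for the members, with a median coefficient of variation of 15.2% in RasV12 and 13.1% in GFP-i, beside 20.4% and 16.7% for all genes in the same range of levels.

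The members did vary together from library to library within a genotype. GFP-i replicate 2 was the lowest of its group for 58 of 71 genes (81.7%), where this held for 39.2% of all tested genes and for 51.4% of tested genes in the same range of levels that were no longer than 1167 bases, the upper quartile of the members. It was lowest for 41 of 45 large-subunit genes and for 17 of 26 small-subunit genes. In the other genotype, RasV12 replicate 1 was the highest of its group for 46 of 71 genes (64.8%, against 33.03% of all tested genes and 38.2% of those short ones), and RasV12 replicate 3 was the lowest for 34 (47.9%, against 31.2% and 39.9%). The median member lay 0.17 below its genotype's mean in GFP-i replicate 2 and 0.13 above it in RasV12 replicate 1 on the log2 scale. Of 72 tested nuclear genes of oxidative phosphorylation, 54 were lowest in GFP-i replicate 2 and 50 highest in RasV12 replicate 1. Other lists shared parts of this pattern and differed in others. GFP-i replicate 2 was lowest for 11 of 13 import and chaperone genes, 44 of 85 cytosolic ribosomal protein genes and 1 of 8 mitochondrial translation factors. In the same order, RasV12 replicate 1 was highest for 4, 49 and 5 genes, and RasV12 replicate 3 lowest for 10, 50 and 1. Of the import and chaperone genes 9 were highest in RasV12 replicate 2, and of the cytosolic ribosomal protein genes 62 were highest in GFP-i replicate 1. These differences between lists were not tested. With GFP-i replicate 2 left out, the median log2 fold change of the members was -0.09, with 22 positive and 49 negative values, and 0 genes passed in either direction.

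**Figure D3:**
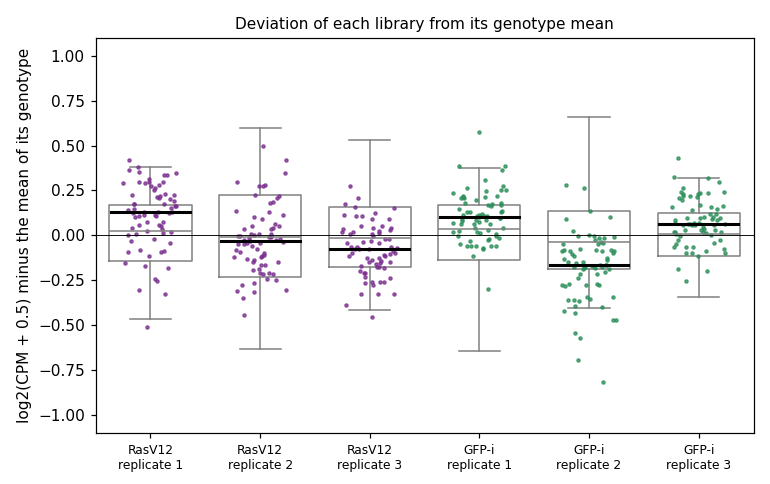
Deviation of each library from the mean of its genotype, on the scale of log2(CPM + 0.5), for the 71 mitoribosomal genes (points, with their median as a black bar) and for the tested genes in the same range of levels (grey boxes with the quartiles and whiskers from the 5th to the 95th percentile). The medians of the members lie at 0.13 in RasV12 replicate 1 and at -0.17 in GFP-i replicate 2.

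Many of these genes are short and lie close to neighbours. The median gene length of the members was 861 bases, against 2983 over all tested genes. On the opposite strand, 41 of the 71 overlap another gene of the table, and for 21 of them that gene had more counts. mRpS14 also overlaps a gene on its own strand. Whether the authors counted reads by strand was stated nowhere in the sources used here, so the counts of these members may include reads of their partners. The median log2 fold change was 0.07 in members with an overlap on the opposite strand and -0.02 in the 30 without one. Of the members outside a log2 fold change of -0.5 to 0.5, mRpL18, mRpL35, mRpL9 and mRpS25 overlap a gene with more counts, and mRpL39 does not. Among the other members whose levels separated the genotypes, mRpL2, mRpL50, mRpS14 and mRpS29 overlap such a gene. mRpL1, mRpL48, mRpL52, mRpS2 and mRpS10 do not.

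Some mitoribosomal proteins go by other symbols and so are not among the 71. For tko, the Drosophila S12 protein of the decoding centre, levels were 23.8, 15.2 and 18.2 CPM in RasV12 and 18.4, 15.7 and 19.0 CPM in GFP-i, with a log2 fold change of 0.11 ± 0.20 (SE). For bonsai, the S15 protein, they were 27.7, 18.4 and 24.5 CPM against 28.7, 23.5 and 35.3 CPM, a log2 fold change of -0.31 ± 0.21 (SE, adjusted p = 0.373, edgeR). Of the 3 such genes 0 passed the test.

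Among genes that work with the mitoribosome, few passed. Of 8 translation factors of mitochondria 0 passed the test, and the one with the lowest p, CG4447 (mRRF1, a ribosome recycling factor), had a log2 fold change of -0.55 ± 0.50 (SE, adjusted p = 0.530, edgeR). Of 14 mitochondrial aminoacyl-tRNA synthetases 0 passed, with the lowest p in Aats-ala-m, which charges the alanine tRNA (0.56 ± 0.20, SE, adjusted p = 0.0895, edgeR). Aats-ala-m passed as higher without RasV12 replicate 2, and Aats-pro as lower with library size as the only scaling. Of 10 genes of mitochondrial RNA processing and stability 0 passed, with the lowest p in bsf, the fly relative of LRPPRC (0.38 ± 0.20, SE, adjusted p = 0.252, edgeR).

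Of 10 genes of mitochondrial genome maintenance and transcription 1 rose, a share close to the 9.15% of all tested genes called higher. This was mTerf3, a factor that in Drosophila is needed for assembly of the mitoribosome. It was at 21.1, 31.6 and 20.9 CPM in RasV12 and at 14.9, 8.08 and 14.4 CPM in GFP-i, with no overlap and a log2 fold change of 0.98 ± 0.27 (SE, adjusted p = 0.0348, edgeR). Of 13 genes of protein import and mitochondrial chaperones 1 rose, also close to that background, blp, a subunit of the motor that pulls imported proteins into the matrix. Its levels of 16.3, 16.7 and 13.1 CPM in RasV12 lay above those of 9.63, 9.14 and 9.52 CPM in GFP-i, a log2 fold change of 0.70 ± 0.18 (SE, adjusted p = 0.0254, edgeR). Neither call held throughout, since the adjusted p reached 0.112 for mTerf3 and 0.129 for blp when libraries were left out in turn. Of these fits, mTerf3 passed only without RasV12 replicate 3, and blp only without RasV12 replicate 2 or 3. Neither gene passed with the replicate block or with library size as the only scaling.

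Of 72 tested nuclear genes of oxidative phosphorylation 0 rose and 2 fell, where 9.15% of all tested genes were called higher and 5.68% lower. Their median log2 fold change was -0.08, with 23 positive values, and 97.2% had absolute values under 0.5, beside 93.0% of the mitoribosomal genes. The genes that fell were blw, the alpha subunit of ATP synthase (-0.44 ± 0.12, SE, adjusted p = 0.0285, edgeR), and its gamma subunit ATPsyn-gamma (-0.44 ± 0.12, SE, adjusted p = 0.0377, edgeR), the latter named because the count is small. The adjusted p of blw reached 0.103, and that of ATPsyn-gamma 0.0868, with single libraries left out. The number of these genes that fell was 5 without RasV12 replicate 2 and 0 without any other single library. It was also 5 with library size as the only scaling. Cyt-c-p rose without RasV12 replicate 1. Of 85 tested genes of cytosolic ribosomal proteins 2 rose and 1 fell, beside the same shares of all tested genes. The median log2 fold change of the 85 was 0.19, with 78 positive values. With library size as the only scaling, the median was 0.03 and that of all tested genes -0.14. RpL18 had a log2 fold change of 0.49 ± 0.12 (SE, adjusted p = 0.0252, edgeR), RpL22-like, a paralog of RpL22, one of -1.93 ± 0.41 (SE, adjusted p = 0.0106), and RpS14b one of 0.56 ± 0.15 (SE, adjusted p = 0.0309), which is uncertain because the neighbouring copy RpS14a is nearly identical. With single libraries left out, the adjusted p reached 0.126 for RpL18, 0.0536 for RpL22-like and 0.178 for RpS14b. The number of cytosolic ribosomal protein genes that rose was 5 without RasV12 replicate 2 or 3, and 0 or 1 without another library. No test of the difference between these lists and the mitoribosomal genes was made. Of 8 regulators linked to mitochondrial biogenesis and growth 0 passed, with the lowest p in srl, the fly PGC-1 (-0.42 ± 0.14, SE, adjusted p = 0.0824, edgeR). With library size as the only scaling srl passed as lower, and without RasV12 replicate 2 Dref, a transcription factor of growth and replication genes, did so.

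**Figure D4:**
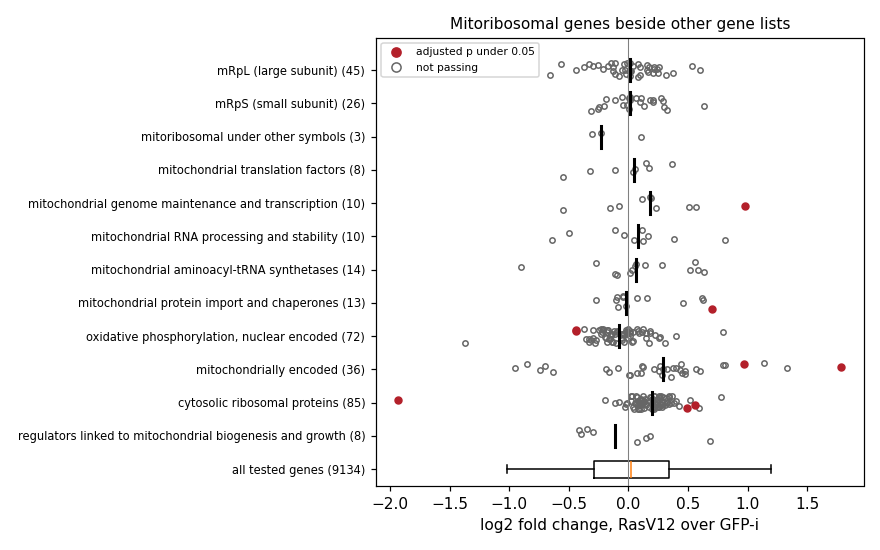
Log2 fold change, RasV12 over GFP-i, of each tested gene in the mitoribosomal lists and in other lists, with the number of genes in parentheses (points, filled where the adjusted p is under 0.05; black bars mark medians), and of all tested genes (box with quartiles, whiskers from the 5th to the 95th percentile). No mitoribosomal gene is filled, and the medians of both subunits lie at 0.01 beside 0.19 for the cytosolic ribosomal proteins.

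Of 36 tested genes of the mitochondrial chromosome 2 rose, both of them rows of transfer RNAs, where 9.15% of all tested genes were called higher. Since 3′ ends of messages were sequenced and the strand setting is not stated, the counts of these rows may include reads of neighbouring genes. Whether the transfer RNAs themselves rose was not tested. The median log2 fold change of the 36 was 0.29, with 28 positive values. With single libraries left out, the number that rose was 1 when RasV12 replicate 1 or GFP-i replicate 2 was dropped and 7 when RasV12 replicate 2 was. mt:tRNA:Gln-TTG had a log2 fold change of 1.79 ± 0.28 (SE, adjusted p = 0.00223, edgeR) and mt:tRNA:Asn-GTT one of 0.97 ± 0.21 (SE, adjusted p = 0.0135, edgeR; up to 0.0671 with single libraries left out). The RNAs of the mitoribosome itself were looked at for their place in it, after their values had been seen. Since 3′ ends of messages were sequenced, whether their counts follow the amounts of these ribosomal RNAs was not tested. The large one, mt:lrRNA, was at 2064, 22215 and 10048 CPM in RasV12 and at 13359, 13597 and 12141 CPM in GFP-i. RasV12 replicate 1 was lower than all other libraries and RasV12 replicate 2 higher, and the log2 fold change of -0.19 ± 0.73 (SE) had a 95% interval from -1.97 to 1.60. The whole mitochondrial chromosome took up 2.16%, 5.31% and 3.24% of the counts in RasV12 replicates 1 to 3. The small one, mt:srRNA, was at 973.5, 839 and 974.6 CPM in RasV12 and at 570, 720 and 773 CPM in GFP-i, without overlap (log2 fold change 0.43 ± 0.14, SE, adjusted p = 0.0680, edgeR). Within RasV12, the summed level of the mitoribosomal protein messages was highest in replicate 1, where mt:lrRNA was lowest. Replicates 2 and 3 did not continue this order: the sum (945 and 907 CPM) and mt:lrRNA were both higher in replicate 2. mt:srRNA was lowest in replicate 2. A relation between these levels was not tested.

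The authors' deposited table gives their own comparison of the same libraries. There, 0 of the 71 genes in the authors' deposited table were called, where 7.07% of the genes with an adjusted p were. The threshold of those calls is not given here. The 7.07% is therefore not comparable with the shares called at an adjusted p under 0.05. The lowest adjusted p among the members in the authors' deposited table was 0.0834, for mRpL39, and the unshrunken log2 fold changes given there ran from -0.69 to 0.61 with a median of -0.02.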

How the data were processed

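Gene counts from 3′ mRNA sequencing of 3 RasV12 and 3 GFP-i libraries were analysed. The deposited counts are raw whole-number counts per gene, per the file headers. The submitters' processing notes name Trimmomatic 0.33, STAR 2.3.0e, bedtools 2.17, FastQC and DESeq2 with the dm6 build; the sources used here do not state the counting mode or its strand setting. The deposited table also holds the authors' DESeq2 results: a mean normalized signal, log2 fold changes, a test score, p-values and calls, which were used only where named.

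Genes were filtered with filterByExpr, scaled by TMM and tested across all genes with edgeR 4.0.16 (quasi-likelihood, robust, two-sided) in R 4.3.3. Alternatives were other scalings, DESeq2 1.42.0, limma-voom (limma 3.58.1), filters, a replicate block and libraries left out. SE is the absolute log2 fold change divided by the square root of F. The fit was tested on simulated data. Every pair of replicates differed by more than counting noise.

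The members and lists were chosen with earlier results of these data known. Named members were the 6 largest changes in each direction among members of at least 10 CPM, the 2 highest and 2 lowest levels, the 2 narrowest intervals and a fixed set; per list, the gene with the lowest p in each direction that passed, or else the lowest p. Other members were named after their values were seen. The assignment to bacterial counterparts follows the unified ribosomal protein names. Of 71 identifiers 69 are in Ensembl release 115, with the same coordinates. The 95% intervals rest on the spread between the 6 libraries; floors cover counting error only, since reads without molecular identifiers are not independent molecules.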

Additional observations from a re-analysis of the deposited data

How the results depend on the processing

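Over 16 alternatives, 0 members were called higher in each. The count of lower members was 0 in 14 of them, 1 with library size only (mRpL1, adjusted p = 0.0443, edgeR) and, with libraries left out in turn, 0 to 1 (mRpL39, without RasV12 replicate 2). The median log2 fold change moved to -0.15 with library size only, where the median over all genes shifted by -0.16; relative to the median of all genes it stayed between -0.07 and 0.05, and without replicates in turn it ran from -0.09 to 0.07. Replicate numbers did not pair the libraries: the correlations of same-numbered deviations were -0.03, -0.42 and -0.11. For libraries of different number they ran from -0.51 (RasV12 replicate 3 with GFP-i replicate 1) to 0.56 (RasV12 replicate 3 with GFP-i replicate 2). RasV12 replicate 2 with GFP-i replicate 1 was at 0.43. What these libraries share was not tested, and the replicate block follows the numbers only. With the replicate block, 0 members were higher and 0 lower, the median was 0.02, and calls over all genes fell to 701 from 1355. With single libraries left out, calls over all genes ran from 741 (without GFP-i replicate 3) to 1521 (without RasV12 replicate 2). With RasV12 replicate 3 and GFP-i replicate 2 left out together there were 678, with 0 members higher or lower and a median of -0.03. Of all calls, 61.7% of calls were higher in the main comparison against 40.3% with library size only. Among 24 named members, 2 of 378 alternative values passed the threshold, those of mRpL1 and mRpL39 above. In 8 of these 24 members, all uncalled in the main comparison, the value changed sign in an alternative. Members outside the 24 changed sign as well, such as mRpL32 (-0.37 to 0.066 over the alternatives) and mRpL45 (-0.19 to 0.15). The values that follow are those of the 8. Without replicates in turn, log2 fold changes ran from -0.044 to 0.58 for mRpS31, -0.44 to 0.084 for mRpL10, -0.17 to 0.16 for mRpL12, -0.21 to 0.26 for mRpL55, -0.020 to 0.31 for mRpS28, -0.090 to 0.098 for mRpL33 and -0.15 to 0.14 for mRpS22. With library size only they were -0.13 (mRpL33), -0.15 (mRpS22), -0.15 (mRpL12), -0.059 (mRpL55) and -0.030 (mRpS30). For mRpL33, mRpS22 and mRpL12 they were -0.021, -0.044 and -0.042 with no filter, -0.016, -0.039 and -0.039 without ribosomal RNA and mitochondrial chromosome rows, and -0.026, -0.012 and -0.14 with both libraries left out. For mRpS22 and mRpL12 they were -0.012 and -0.011 with DESeq2's size factors in edgeR, -0.0168 for each with DESeq2, and -0.0090 and -0.012 with upper quartile scaling. mRpS22 was at -0.00215 with the block. The cause was not tested. Depth limits mRpL10, mRpL9 and mRpL35 most, at 11 to 50 counts a library.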
